A study of Caenorhabditis elegans with 8 samples.

Results

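To ask how the wild-type (WT) germline transcriptome of *C. elegans* differed between 2 culture temperatures, the 2 WT libraries made at 25°C were compared with the 2 made at 20°C, which are 4 of the 8 libraries of the series. The other 4 libraries come from *nmad-1* (ok3133) deletion mutants at the same temperatures and entered only where stated. All WT samples are of the n2 strain, are given the L4 stage in their labels, and hold mRNA selected with oligo-dT beads from germlines extracted from 100 worms per group. The replicates are described as biological. The data columns carry no replicate number, so the letters A and B serve as names within each group. How long the worms were kept at each temperature is not given in the sources used here. The tables of the 2 temperatures were normalized apart from each other, so the values as deposited share no scale between temperatures. The 4 libraries were rescaled together for this reason. Anything else that differed between the tables cannot be told apart from temperature.

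The hermaphrodite gonad is a tube in which mitotic germ cells at the distal end enter meiosis and, in the adult, mature into oocytes that are stocked with maternal mRNA, eggshell components and yolk. At the upper end of the range in which worms are grown in the laboratory their fertility falls. P granules and small RNA pathways guard the germline, and many of their mutants are sterile only at the higher temperature. The heat shock response, in which the transcription factor HSF-1 drives chaperone genes, is known from shocks well above this range.

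The depth, worked out from the size of 1 read in the values of a library, was between 18451560 and 33429410 reads. Ribosomal RNA genes took between 23.3% and 29.2% of a library, and between 15094 and 16799 other genes were above 0. All values below are expected counts divided by a size factor and rescaled so that the 4 libraries have the same total outside ribosomal RNA. They are not corrected for gene length, so levels are compared between libraries and not between genes. A mean of at least 10 was required, which 11363 genes reached, and these were tested with limma on log2(value + 1), the scale of all differences below, which are given as 25°C minus 20°C. The threshold was an adjusted p (Benjamini-Hochberg over all genes tested) of 0.05. With 2 libraries against 2, an exact permutation test of a single value cannot go below a two-sided p of 0.333, so none is given. Of the 156 genes named here with a value, 145 passed the threshold, and 91 of these passed in every alternative that tested them and without each library. Genes of the latter kind are said below to have held.

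Germline transcripts were abundant in all 4 libraries. *gld-1*, an RNA-binding protein of meiotic germ cells, was at 33026 and 32699 at 20°C and 38142 and 34950 at 25°C. *oma-1*, a maternal regulator of the late oocyte, was at 12459 and 11994 at 20°C and 13315 and 12668 at 25°C. *cbd-1*, a chitin-binding protein of the eggshell, was at 134800 and 139040 at 20°C and 149940 and 152990 at 25°C. None of these 3 differences passed the threshold with the same total. With the values left as deposited all 3 passed as higher, and *gld-1* and *oma-1* also with scaling by the median of ratios. Of 31 major sperm protein genes, which are transcribed at a high level while an L4 hermaphrodite makes sperm, 1 reached a mean of 10, and the family took between 4.37e-05% and 0.00185% of a library. These values go against an L4 gonad that is making sperm, and the stage is repeated here as labelled. *nmad-1* (listed as F09F7.7, WBGene00017304, chromosome III), which is intact in these worms, was at 584 and 521 at 20°C and 731 and 669 at 25°C. Its difference of 0.34 (standard error 0.11, limma adjusted p = 0.039) did not pass under 5 of 12 alternatives, nor without 20°C library A, 20°C library B or 25°C library A (adjusted p up to 0.222).

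At 25°C, 1224 genes were higher (10.8% of those tested) and 3947 were lower (34.7%). Changes of at least 2-fold were mostly falls, with 203 genes higher by that much (1.79%) and 3063 lower (27.0%). The rises were small, since 1021 of the 1224 higher genes differed by less than 1 on the log2 scale and 793 by less than 0.5. The direction of changes this small depended on the scaling. Of the genes called, 23.7% were higher with the same total, 50.1% with the median of ratios, 56.1% with the values as deposited and 6.4% with the upper quartile. The median difference over all genes was -0.11, 0.08, 0.14 and -0.33 under these scalings. Falls of at least 2-fold numbered between 2670 and 3581 under the scalings tried. The count of higher genes was 418 without 20°C library A, 319 without 20°C library B and 692 without 25°C library A, and that of lower genes was 2210 without 20°C library B.

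Most falls were in genes of low level. With the genes split by mean value into 10 groups of equal size, between 46.1% and 62.8% were lower at 25°C in the lowest 3 groups (means of 10.01 to 62.4), and the median difference of a group was between -1.39 and -1.34. In the highest 4 groups (788.9 and above) between 5.99% and 17.0% were lower and between 17.2% and 18.4% were higher, with medians between 0.07 and 0.10. The shares of each list below are read against these backgrounds.

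**Figure D1:**
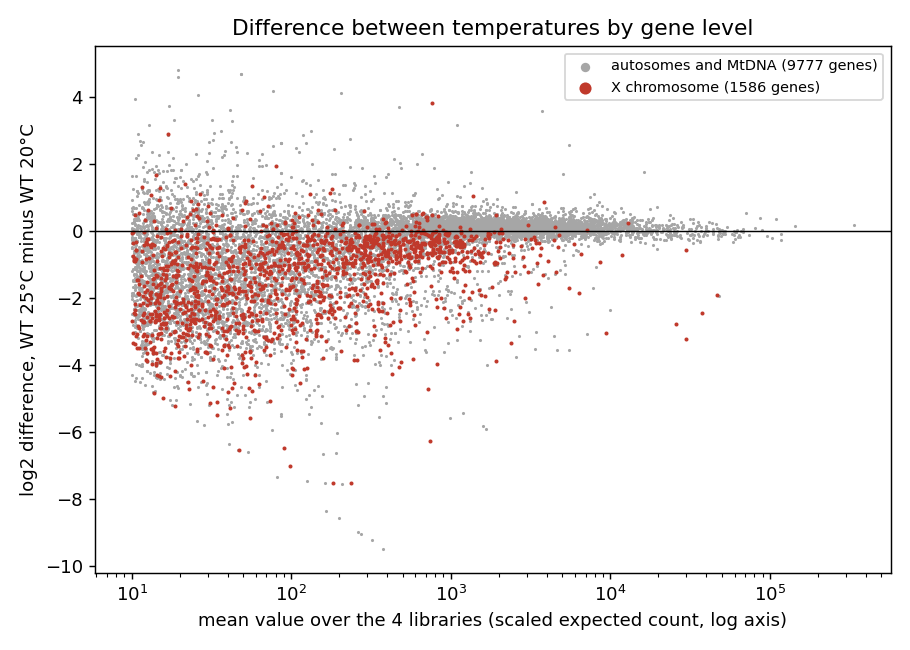
Difference between WT at 25°C and WT at 20°C (y axis, log2 scale) against the mean value over the 4 libraries (x axis, scaled expected count, log axis) for the 11363 genes tested, 1 point per gene, with the 1586 genes of the X chromosome in red and the others in grey. Many genes of low level lie below 0, most genes with a mean of at least 1000 lie near 0, and the X chromosome genes among the latter lie below the rest, with a median of -0.64 against 0.09 for the autosomes.

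Transcripts of tissues other than the germline were lower at 25°C in each of 6 lists, which hold textbook markers of muscle, intestine, epidermis and neurons, the cuticle collagens and the yolk proteins. Of the 212 members tested, 180 were lower and 3 were higher. Together these lists took 2.28% and 2.69% of the 20°C libraries and 0.453% and 0.697% of the 25°C libraries. In the *nmad-1* libraries they took 2.43% and 2.78% at 20°C and 1.25% and 2.76% at 25°C, so that both WT libraries at 25°C lay below the other 6. In extracted tissue, fewer cells of a type and less RNA per cell cannot be told apart. Outside these lists 3767 of 11151 genes were lower and 1221 were higher, and the part of somatic RNA in those falls was not tested.

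Muscle genes were lower in 23 of 23 cases, with differences between -4.02 and -1.39 and a median of -2.37. *unc-54*, the major myosin heavy chain of the body wall, was at 13387 and 20032 at 20°C and 2647 and 3766 at 25°C. Its difference was -2.37 (standard error 0.21, limma adjusted p = 1.7e-04). *ttn-1*, a titin-like giant protein, was at 5074 and 7206 at 20°C and 789 and 697 at 25°C (-3.03). *mlc-3*, a myosin light chain, was at 2812 and 3328 at 20°C and 495 and 502 at 25°C (-2.62). In these genes both 25°C libraries were several-fold below either 20°C library. *myo-3*, a minor body wall myosin, was at 1244 and 2094 at 20°C and 297 and 314 at 25°C (-2.40). The pharyngeal myosins *myo-2* and *myo-1* fell too, but there the 25°C libraries stood further apart. *myo-2* was at 2861 and 4299.7 at 20°C and 428 and 132 at 25°C. *myo-1* was at 2551 and 3756 at 20°C and 393 and 91.6 at 25°C. The list took 0.331% and 0.448% of the 20°C libraries and 0.0702% and 0.0841% of the 25°C libraries. All 23 members were lower under each alternative and without each library.

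Of 31 intestinal genes tested 29 were lower and none was higher, with a median of -2.41. The aspartic protease gene *asp-1* was at 12250 and 13248 at 20°C and 1391 and 1649 at 25°C (-3.07, limma adjusted p = 7.5e-06). A second one, *asp-6*, was at 5463 and 6965 at 20°C and 488 and 576 at 25°C (-3.54). The cysteine protease gene *cpr-5* had the lowest difference of the list, -5.55, at 672 and 724 at 20°C and 13.3 and 14.6 at 25°C. These genes encode digestive enzymes of the gut. *elt-2*, the GATA factor that keeps intestinal identity, was low throughout, at 49.4 and 38.2 at 20°C and 6.64 and 4.87 at 25°C (-2.73). *vha-6*, a proton pump subunit of the gut lumen, was at 1261 and 1506 at 20°C and 183 and 192 at 25°C (-2.87).

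The yolk protein genes are transcribed in the intestine, and the oocyte takes up their products. All 6 were lower, with differences between -3.24 and -1.92, and they took 1.34% and 1.58% of the 20°C libraries and 0.217% and 0.381% of the 25°C libraries. *vit-2* was at 67653 and 77939 at 20°C and 14638 and 25296 at 25°C (-1.92). *vit-3* was at 49277 and 57829 at 20°C and 3929.8 and 8125 at 25°C (-3.24). *vit-6*, the one yolk gene that is not on the X chromosome, was at 69688 and 82086 at 20°C and 14870 and 25808 at 25°C (-1.95). In each of them 25°C library B was higher than library A. Both lay below the 20°C libraries, as in 47.1% of all genes tested. The gene of the yolk receptor, *rme-2*, is transcribed in oocytes and differed from the yolk genes in direction. It was at 37643 and 38058 at 20°C and 44805 and 46014 at 25°C (0.26). This rise passed under 7 of 12 alternatives, not under the upper quartile, and was lost without 20°C library A, 20°C library B or 25°C library B.

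The cuticle collagens included the largest falls of the comparison. Of 96 col genes tested 72 were lower and 3 higher (median -2.59), and of 29 other epidermal and cuticle genes 24 were lower and none higher (median -3.60). The lists held 11 and 4 genes that were at 0 in both 25°C libraries, and both medians are the same with these genes at the bound that 3 reads allow. Such genes, which include the first 3 named below, reached the mean required for testing only through their 20°C libraries. *col-17* was at 518 and 997 at 20°C and 0 and 0 at 25°C, at least 263-fold lower when 0 is taken as 3 reads per library (a mean of 2.88 in these units). *dpy-13*, a collagen that sets body shape, was at 393 and 707 at 20°C and 0 and 0 at 25°C, at least 191-fold lower. *rol-6*, whose mutants roll, was at 140.1 and 186 at 20°C and 0 and 0 at 25°C, at least 56.6-fold lower. Cuticle collagens are made by the epidermis around each moult. *col-10* was at 2856 and 3642 at 20°C and 62.0 and 44.9 at 25°C (-5.91). The 3 higher collagens were all of low level. *col-45* rose from near 0, at 0 and 0.981 at 20°C and 22.8 and 18.5 at 25°C (3.94, limma adjusted p = 0.0026). It reached the mean required for testing only through its 25°C libraries. *col-53* was at 20.7 and 28.4 at 20°C and 56.9 and 41.9 at 25°C (0.98). *col-60* was at 19.1 and 9.81 at 20°C and 39.8 and 30.2 at 25°C (1.28). Under the upper quartile no collagen was called higher.

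Neuronal genes were lower in 26 of 27 cases, with a median of -2.95. *unc-13*, which primes synaptic vesicles, was at 381 and 447 at 20°C and 66.4 and 47.8 at 25°C (-2.85). The vesicle GTPase gene *rab-3* was at 92.3 and 151 at 20°C and 19.9 and 9.74 at 25°C (-2.99). *sbt-1*, a chaperone of neuropeptide processing, was at 436 and 480.5 at 20°C and 65.4 and 47.8 at 25°C (-3.01). In all of these both 25°C libraries lay below both 20°C libraries, at levels under 500. Over all genes tested, 47.1% had both 25°C libraries below both 20°C libraries. The alpha-tubulin gene *mec-12* was at 334 and 364 at 20°C and 49.3 and 36.1 at 25°C (-3.02).

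The somatic cells of the gonad, sheath, spermatheca and distal tip, form its wall, and their genes behaved less uniformly. Of 20 tested 9 were lower (45.0%, against 34.7% of all genes tested), 2 higher and 9 did not pass. One of the 9 lower genes is *unc-54*, which is also in the muscle list. The sheath transcription factor *ceh-18*, named here after its values were seen, was at 115 and 148 at 20°C and 34.1 and 30.2 at 25°C (-1.99). *mig-6*, a papilin of the gonadal basement membrane, was at 2289.6 and 2969 at 20°C and 373 and 557 at 25°C (-2.51). *lim-7*, another sheath marker, was at 71.7 and 91.2 at 20°C and 88.2 and 70.2 at 25°C (-0.039). *inx-8*, an innexin through which the sheath couples to germ cells, was at 2186 and 2112 at 20°C and 1935 and 1995 at 25°C (-0.13). Neither of the last 2 passed, and both differences are above 0 under the median of ratios and as deposited. Under the upper quartile *inx-8* passed as lower (-0.35). The higher members were *mel-11*, a myosin phosphatase subunit, and *vab-1*, the Eph receptor, at 0.27 and 0.28, and these calls were lost under the upper quartile, without the variance trend and without either 20°C library, that of *vab-1* also without 25°C library A (adjusted p up to 0.163 without a library).

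Of 18 basement membrane genes 11 were lower (61.1%, against 34.7% of all genes tested) and 2 higher, with a median of -1.23. The collagen IV gene *emb-9* was at 3872 and 5127 at 20°C and 1768 and 2026 at 25°C (-1.23). Its partner chain *let-2* was at 5523 and 7324 at 20°C and 2476 and 2962 at 25°C (-1.23). The laminin alpha chain gene *epi-1* was at 1140 and 1493 at 20°C and 336 and 354 at 25°C (-1.92). The order of these differences was not tested. Of the higher members, *cle-1*, a collagen XVIII, was at 597 and 624 at 20°C and 829 and 817 at 25°C (0.43), and *pxn-1*, a peroxidasin, was at 81.2 and 117 at 20°C and 157 and 154 at 25°C (0.67). Both calls were lost under the upper quartile and without either 20°C library. That of *pxn-1* was lost without either 25°C library as well, and was kept under only 4 of 12 alternatives.

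**Figure D2:**
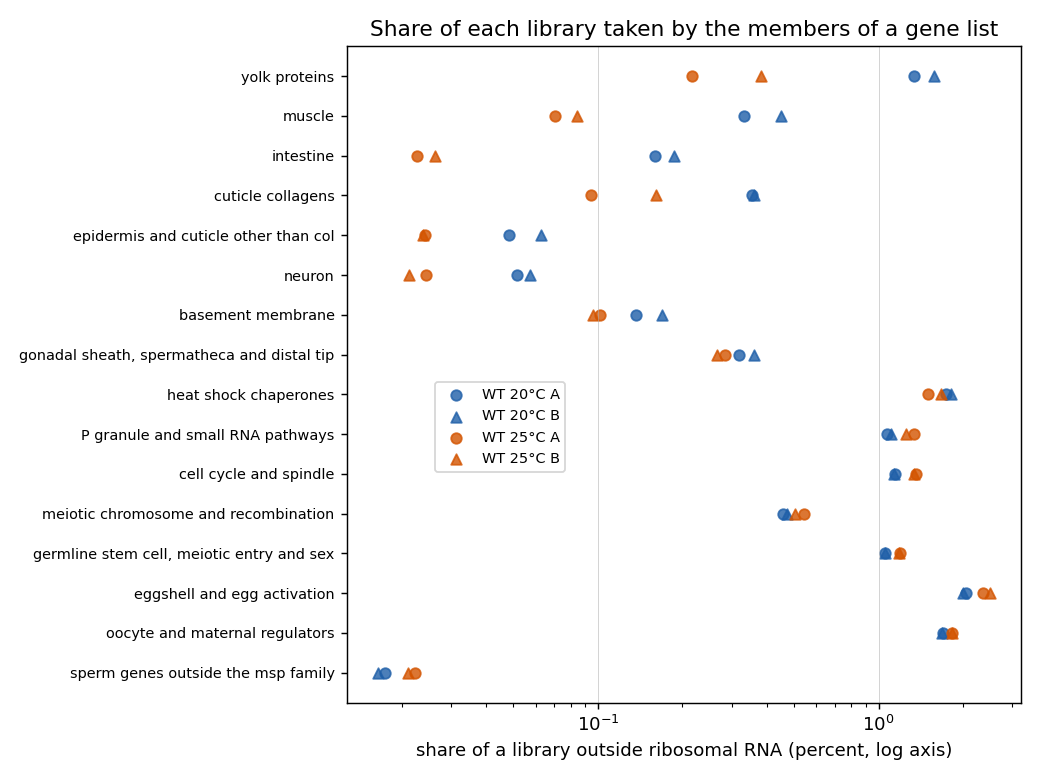
Share of each WT library outside ribosomal RNA (x axis, percent, log axis) taken by the members of 16 gene lists (y axis), with 1 point per library, 20°C in blue and 25°C in orange, library A as circles and library B as triangles. Muscle took 0.331% and 0.448% at 20°C against 0.0702% and 0.0841% at 25°C and yolk proteins 1.34% and 1.58% against 0.217% and 0.381%, while the points of the germline lists lie close together.

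Among large families, 73 of 116 nuclear hormone receptor genes tested were lower (62.9%) and 2 higher, with a median of -1.13, and 35 of 57 C-type lectin genes were lower (61.4%) and 1 higher, with a median of -1.64. The median of their members' mean values was 50.2 and 47.84, and the shares are near the 62.8% of all genes in the third of the 10 groups by mean value (31.2 to 62.4). The lower receptor genes numbered 39 without 20°C library A and 29 without 20°C library B. The F-box and related genes, of similar level, were lower in 29 of 152 cases (19.1%) and higher in 27, with a median of -0.01 that is 0.18 under the median of ratios. Among genes that respond to pathogens 18 of 24 were lower (10 without 20°C library B) and 1 was higher. *zip-2*, a bZIP transcription factor of the infection response, was at 2715 and 2932 at 20°C and 483 and 499.9 at 25°C (-2.52, limma adjusted p = 8.1e-06). *sysm-1*, a target of the p38 pathway, was at 533 and 735 at 20°C and 105 and 98.4 at 25°C (-2.61). *irg-5*, another infection response gene, was the higher one at 541 and 418 at 20°C and 847 and 2020.1 at 25°C (1.46). Its 25°C libraries differed by more than 2-fold, and its call was lost without either 20°C library (adjusted p up to 0.145) and without the variance trend. Of 29 early zygotic genes 13 did not reach a mean of 10. Of the rest 1 was higher (6.25%) and 4 lower (25.0%), against 10.8% and 34.7% of all genes tested. Whether the libraries hold RNA of embryos was not tested.

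Heat shock genes were mostly lower or level at 25°C. Of 29 chaperone and heat shock genes tested 18 were lower (62.1%, against 34.7% of all genes tested) and 2 higher (6.9%, against 10.8%). The median was -0.36 and stayed below 0 under each scaling. Without the variance trend 6 were lower and none higher, and under the median of ratios 13 were lower and 5 higher. The small heat shock gene *hsp-16.2* was at 359.8 and 1381 at 20°C and 73.9 and 115 at 25°C (-2.92). *hsp-16.48*, which has the same values as its copy *hsp-16.49*, was at 318 and 1300.2 at 20°C and 58.8 and 103 at 25°C (-3.03). *hsp-70*, an inducible member of the HSP70 family, was at 968 and 2377 at 20°C and 255 and 345 at 25°C (-2.35). Genes of this kind are the classic targets of HSF-1. *F44E5.5* and *F44E5.4* form a pair of nearly identical inducible HSP70 genes, the second of which was named here after its values were seen. *F44E5.5* was at 4769 and 15793 at 20°C and 601 and 903 at 25°C (-3.56). *F44E5.4* was at 1151 and 6932 at 20°C and 432 and 502 at 25°C (-2.60).

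In these 5 genes both 20°C libraries were above both 25°C libraries, as in 47.1% of all genes tested. Among the 5, 20°C library B stood far above library A, by between 2.46 and 6.02 times. Without 20°C library B the difference of *hsp-16.2* was -1.95, that of *hsp-16.48* -2.02, that of *hsp-70* -1.70, that of *F44E5.5* -2.69 and that of *F44E5.4* -1.303, and each still passed. The call of *F44E5.4* was lost without 25°C library A (adjusted p = 0.0594), and those of *hsp-16.2*, *hsp-16.48* and *F44E5.4* were lost without the variance trend. How reads were divided between copies of this family is uncertain.

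Other small heat shock genes fell with less spread between the 20°C libraries. *hsp-17* was at 259.5 and 453 at 20°C and 23.7 and 28.3 at 25°C (-3.68). *hsp-12.2* was at 358 and 399 at 20°C and 73.0 and 64.3 at 25°C (-2.45). *hsp-25*, on the X chromosome, was at 556 and 804 at 20°C and 151 and 187 at 25°C (-1.99). These 3 genes held, as did *hsp-43* on the X chromosome, at 317 and 396 at 20°C and 77.7 and 106 at 25°C (-1.95). Of all genes with a mean between 141.6 and 353.6, 53.8% were lower. The constitutive chaperones differed by little. *hsp-1*, the constitutive HSP70, was at 130330 and 125640 at 20°C and 99794 and 113050 at 25°C (-0.27, limma adjusted p = 0.062). *hsp-90* was at 109030 and 112470 at 20°C and 93580 and 97724 at 25°C (-0.21, limma adjusted p = 0.089). *hsf-1* itself was at 3449 and 3595 at 20°C and 3741 and 3665 at 25°C (0.073, negative under the upper quartile). None of these 3 passed, but *hsp-1* (-0.49) and *hsp-90* (-0.43) did under the upper quartile, *hsp-1* also without 25°C library B, and *hsf-1* did as higher under the median of ratios (0.25) and as deposited (0.32). *hsp-110* and the co-chaperone gene *sti-1* were lower by small amounts, -0.36 and -0.26, and did not pass under the median of ratios or without 3 of the 4 libraries in turn (adjusted p up to 0.249; the exceptions were 20°C library A for *hsp-110* and 25°C library B for *sti-1*). The 2 higher members were *sip-1*, a small heat shock protein of oocytes and embryos, and *chn-1*, a CHIP ubiquitin ligase. *sip-1* was at 64172 and 51170 at 20°C and 73887 and 94145 at 25°C (0.54). *chn-1* was at 1474 and 1481 at 20°C and 1776 and 1731 at 25°C (0.25). Both calls were lost under the upper quartile and without 20°C library A, 20°C library B or 25°C library B. That of *chn-1* was lost without 25°C library A as well, and was kept under only 6 of 12 alternatives.

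**Figure D3:**
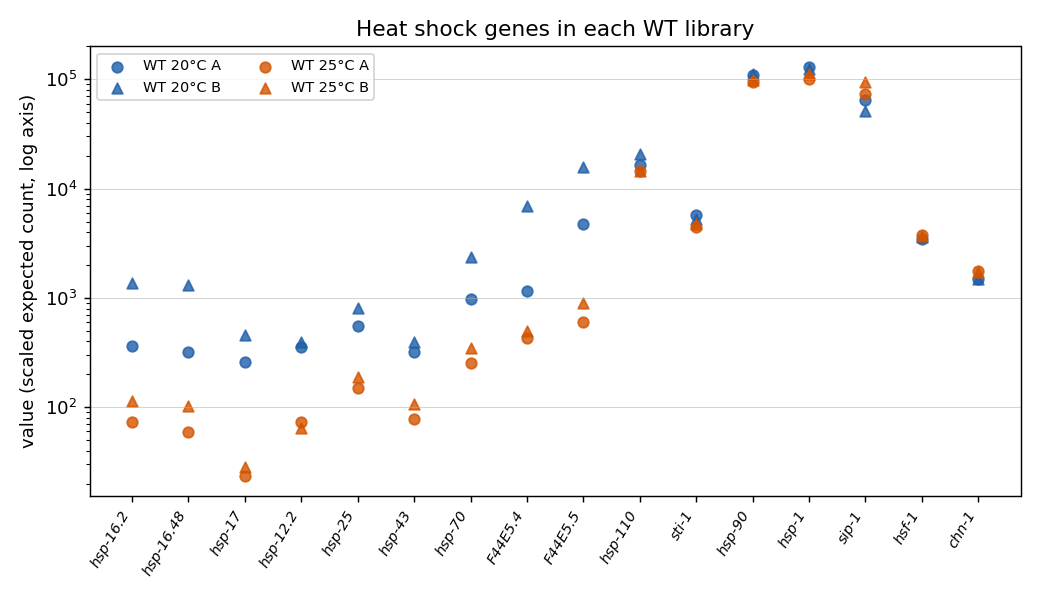
Values of 16 heat shock and chaperone genes (x axis) in each WT library (y axis, scaled expected count, log axis), 20°C in blue and 25°C in orange, library A as circles and library B as triangles. In *hsp-16.2*, *hsp-16.48*, *hsp-70*, *F44E5.4* and *F44E5.5* the 20°C libraries lie above the 25°C libraries, with library B between 2.46 and 6.02 times library A, while *hsp-90*, *hsp-1* and *hsf-1* lie close together in all 4.

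Other folding systems moved less. In the endoplasmic reticulum list 6 of 19 members were lower (31.6%, against 34.7% of all genes tested) and none higher. Of the 6 lower members 5 are on the X chromosome. *hsp-3*, one of a pair of BiP chaperones and an X chromosome gene, was at 14652 and 14617 at 20°C and 8631 and 9169 at 25°C (-0.72). Its partner *hsp-4* on chromosome II, which the unfolded protein response induces, was at 14860 and 14861 at 20°C and 14276 and 14478 at 25°C (-0.048, above 0 under the median of ratios). The disulfide isomerase gene *pdi-2* was at 11370 and 11277 at 20°C and 5493 and 6558 at 25°C (-0.92). *hsp-3* and *pdi-2* held, as did *pdi-6* (-0.81), and *hsp-4* did not pass except as lower under the upper quartile (-0.27). The calreticulin gene *crt-1* was at 23251 and 23471 at 20°C and 15215 and 17060 at 25°C (-0.54), a call lost without 20°C library B (adjusted p = 0.0533). In the CCT chaperonin and prefoldin list 2 of 14 were lower, *cct-1* at -0.29 and *cct-2* at -0.23, and neither passed under the median of ratios or without either 20°C library (adjusted p up to 0.208). Among 10 mitochondrial chaperones and proteases 3 were lower. *dve-1*, a transcription factor of the mitochondrial stress response, was at 109.9 and 106 at 20°C and 15.2 and 17.5 at 25°C (-2.65). *hsp-6*, the mitochondrial HSP70, was at 20106 and 21638 at 20°C and 18176 and 17515 at 25°C (-0.23), a difference that did not pass under 7 of 12 alternatives or without any 1 library (adjusted p up to 0.336).

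Of 23 genes of glycolysis, gluconeogenesis and the glyoxylate cycle 10 were lower and 3 higher, the latter none without either 20°C library. *icl-1*, the fused isocitrate lyase and malate synthase of the glyoxylate cycle, was at 8519.9 and 8589 at 20°C and 756 and 708 at 25°C. Its replicates were close to each other, and the difference was -3.54 (standard error 0.077, limma adjusted p = 2.0e-06). *pck-1*, a PEP carboxykinase, was at 1745 and 1616 at 20°C and 264 and 241 at 25°C (-2.73). *aldo-1*, an aldolase, was at 984 and 1065 at 20°C and 216 and 207 at 25°C (-2.27). The GAPDH genes parted. *gpd-3*, on the X chromosome and nearly identical to *gpd-2*, was at 2514 and 2702 at 20°C and 632 and 724 at 25°C (-1.94). *gpd-1*, on chromosome II, was at 11594 and 10173 at 20°C and 12577 and 13735 at 25°C (0.28). The phosphoglycerate kinase gene *pgk-1* was at 2575 and 2529.8 at 20°C and 3126 and 3192 at 25°C (0.31). The rises of *gpd-1* and *pgk-1* did not pass under the upper quartile or without either 20°C library. That of *gpd-1* also did not pass without 25°C library B, and it passed under only 5 of 12 alternatives.

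Of 21 genes of fatty acid desaturation and membrane fluidity 9 were lower (42.9%, against 34.7% of all genes tested) and none higher. The stearoyl-CoA desaturase gene *fat-7* was at 263 and 159 at 20°C and 17.1 and 40.9 at 25°C (-2.90). Its close paralogue *fat-6* was at 686 and 892 at 20°C and 374 and 462 at 25°C (-0.91). The desaturase gene *fat-2* was at 2048 and 2319 at 20°C and 649 and 806 at 25°C (-1.59). All 3 are known from the intestine, and the part of intestinal RNA in their falls was not tested. The elongase gene *elo-2* was at 505 and 562 at 20°C and 152 and 187 at 25°C (-1.65). *fat-6* did not pass without 20°C library B (adjusted p = 0.054) or with all 8 libraries in the fit.

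Antioxidant genes were divided, with 5 of 18 higher and 5 lower (3 and 3 without either 20°C library). With all 4 libraries the share was 27.8% each way, against 10.8% higher and 34.7% lower of all genes tested. The 3 catalase genes are neighbours on chromosome II, are similar in sequence, and went in different directions. *ctl-3* was at 575 and 566 at 20°C and 1158 and 1233 at 25°C (1.07). *ctl-1* was at 134 and 174 at 20°C and 50.5 and 57.5 at 25°C (-1.49). *ctl-2*, the peroxisomal one, was at 434 and 397 at 20°C and 65.7 and 109.8 at 25°C (-2.27). How the counting divided reads that fit more than one of them is uncertain. The mitochondrial superoxide dismutase gene *sod-2* was at 1672 and 1556 at 20°C and 2259 and 2352 at 25°C (0.51), and it held, as did the 3 catalase genes. The mitochondrial peroxiredoxin gene *prdx-3* was at 2426 and 2186 at 20°C and 2835 and 2846 at 25°C (0.30), a call lost under the upper quartile and without 20°C library B (adjusted p = 0.156).

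Transcripts that the germline itself makes were mostly level or slightly higher at 25°C, a lean that turned under the upper quartile in the median of each germline list outside sperm. Of 45 P granule and small RNA genes 17 were higher (37.8%) and 4 lower, with a median of 0.17 (-0.05 under the upper quartile, with 4 higher and 6 lower). The higher members numbered 30 under the median of ratios, 5 without 20°C library A, 4 without 20°C library B and 8 without 25°C library A. *wago-4*, an Argonaute of heritable silencing, was at 5769 and 5617 at 20°C and 9479 and 8848 at 25°C (0.69, standard error 0.074, limma adjusted p = 3.6e-04). *prg-1*, the Piwi protein that binds piRNAs, was at 8289 and 8591 at 20°C and 12573 and 12602 at 25°C (0.58). The P granule helicase gene *glh-1* was at 10175 and 9062 at 20°C and 14501 and 14134 at 25°C (0.58). These genes held, with 25°C libraries about 1.5-fold above the others, and so did *glh-4*, a relative of *glh-1*, at 4293 and 4590.3 at 20°C and 6766 and 6387 at 25°C (0.57). *pgl-1*, a P granule scaffold, *hrde-1*, a nuclear Argonaute, and *csr-1*, the Argonaute that binds germline transcripts, rose by 0.39, 0.36 and 0.33. These 3 calls were lost under the upper quartile and without either 20°C library (adjusted p up to 0.13).

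Of the 4 lower members of the same list 3 lay on the X chromosome. The microRNA Argonaute gene *alg-1*, on the X chromosome, was at 1506 and 1748 at 20°C and 870.2 and 746 at 25°C (-1.01). Its paralogue *alg-2*, on chromosome II, was at 2267 and 2208 at 20°C and 1540.4 and 1653 at 25°C (-0.49). *nrde-3*, on the X chromosome, encodes a nuclear Argonaute of somatic cells and was at 1457 and 1638 at 20°C and 1021 and 977 at 25°C (-0.63). *alg-1*, *alg-2* and *nrde-3* held.

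Genes of division and meiosis leaned to the higher side. In the highest 4 groups of all genes by mean value, between 17.2% and 18.4% were higher, with medians between 0.07 and 0.10. Of 47 cell cycle and spindle genes 18 were higher (38.3%) and none lower, with a median of 0.18 (-0.04 under the upper quartile, with 4 higher and 4 lower). The higher members numbered 38 under the median of ratios, 5 without 20°C library A and 4 without 20°C library B. The kinesin gene *klp-18*, which builds the acentrosomal spindle of the oocyte, was at 6607 and 6632 at 20°C and 11186 and 10830 at 25°C (0.73). The chromokinesin gene *klp-19* was at 13220 and 14468 at 20°C and 21080 and 22414 at 25°C (0.65). Both held, as did *klp-7*, a microtubule depolymerase, and *hcp-3*, the centromeric histone H3, at 0.54 and 0.47. Of 41 meiotic chromosome genes 12 were higher (29.3%) and none lower, with a median of 0.14 (-0.07 under the upper quartile, with 1 higher and 2 lower). Here 33 were higher under the median of ratios, 2 without 20°C library A, 1 without 20°C library B and 7 without 25°C library A. *htp-2*, a HORMA-domain protein of the chromosome axis, was at 1095 and 1034 at 20°C and 1838 and 1724 at 25°C (0.74) and held. The cohesin gene *rec-8* (0.41), the synaptonemal complex gene *syp-1* (0.37) and *dsb-1* (0.44), which promotes meiotic breaks, rose but did not pass under the upper quartile or without 20°C library B, and the first 2 not without 20°C library A (adjusted p up to 0.0681).

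DNA replication genes gave 5 higher and 1 lower of 45, and DNA repair and checkpoint genes 17 higher (30.4%) and 1 lower of 56, with medians of 0.12 and 0.17 that are -0.10 and -0.04 under the upper quartile. Under the median of ratios 32 replication and 40 repair genes were higher, under the upper quartile 1 and none were higher and 6 and 6 lower. Without 20°C library A none of either list was higher, without 20°C library B 1 and none, and without 25°C library A 4 and 5. The replicative helicase gene *mcm-2* was at 10243 and 10641 at 20°C and 12436 and 12739 at 25°C (0.27). The single-strand binding protein gene *rpa-1* was at 8065 and 7779 at 20°C and 10218 and 9579 at 25°C (0.32). The topoisomerase gene *top-2* was at 18929 and 20584 at 20°C and 27787 and 27303 at 25°C (0.48). *top-2* passed under each scaling but not without 20°C library A (adjusted p = 0.0698), and the lower member was *psf-2*, a GINS subunit, at -0.36. Among repair genes *polq-1*, the polymerase theta of end joining, was at 2766 and 3012 at 20°C and 4566 and 3644 at 25°C (0.50). *cku-80*, a Ku subunit, was at 2064 and 2122 at 20°C and 2814 and 2515 at 25°C (0.35). *cep-1*, the p53 homologue of the germline checkpoint, was at 2178 and 2161 at 20°C and 2915 and 2419 at 25°C (0.29). The one lower repair gene was *lig-4*, the ligase that works with Ku, at 1207 and 1197 at 20°C and 1036 and 953 at 25°C (-0.27). The calls of *mcm-2*, *rpa-1*, *polq-1* and *cku-80* were lost under the upper quartile and without either 20°C library. That of *cep-1* was lost there and without 25°C library A, and was kept under only 4 of 12 alternatives. The call of *lig-4* was kept under 7 of 12, not under the median of ratios, and was lost without either 20°C library or 25°C library B. That of *psf-2* was lost under the median of ratios and without 20°C library A or 25°C library B.

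Of 27 apoptosis and engulfment genes 5 were higher and 3 lower, against 1 and 1 without 20°C library A, none and 1 without 20°C library B, and 13 and 3 under the median of ratios. The caspase gene *ced-3* was at 6772 and 7181 at 20°C and 8848 and 8091 at 25°C (0.28). The engulfment receptor gene *ced-1* was at 3278 and 3665 at 20°C and 4168 and 4412 at 25°C (0.31). The mitochondrial endonuclease gene *cps-6* was at 1039.7 and 1107 at 20°C and 1560.3 and 1362 at 25°C (0.44). None of the 5 rises passed under the upper quartile, and these 3 were lost without either 20°C library, with 25°C library A also needed for *ced-3* and 25°C library B for *ced-1* (adjusted p up to 0.192). The lower members included *nuc-1*, a DNase II, at -1.71, and *ced-8*, which acts in phosphatidylserine exposure, at -0.94, both on the X chromosome. *nuc-1* held, and *ced-8* was lost without either 20°C library (adjusted p up to 0.0909).

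Among regulators of germline stem cells, meiotic entry and sex 14 of 33 were higher (42.4%) and 2 lower, with a median of 0.20 (-0.02 under the upper quartile, with 5 higher and 6 lower). The higher members numbered 24 under the median of ratios, 4 without 20°C library A and 6 without 20°C library B. *fbf-2*, a PUF protein that keeps stem cells in mitosis, was at 726 and 861 at 20°C and 1454 and 1293 at 25°C (0.79). Its close copy *fbf-1* was at 1165 and 1460.3 at 20°C and 2132 and 1900 at 25°C (0.63). Another PUF gene, *puf-6*, was at 6456 and 6043 at 20°C and 9207 and 9202 at 25°C (0.56). *fbf-2* and *puf-6* held, as did *fem-3*, which promotes the male fate of germ cells, at 1374 and 1372 at 20°C and 2188 and 2058 at 25°C (0.63). The call of *fbf-1* was lost without 20°C library A (adjusted p = 0.0522) and without the variance trend. The Notch receptor gene *glp-1*, which keeps stem cells in division, rose by 0.23, and *daz-1*, a regulator of oogenesis, and *tra-3*, a calpain of sex determination, were lower at -0.21 and -0.36. The call of *glp-1* was kept under only 4 of 12 alternatives, not under the upper quartile, and was lost without any library but 25°C library B. That of *daz-1* was kept under only 5 of 12, not under the median of ratios, and was lost without any 1 library. That of *tra-3* was lost under the median of ratios and without 20°C library B.

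Of 31 oocyte and maternal regulators 9 were higher (29.0%) and none lower, and under the upper quartile none was higher and 3 were lower. The higher members numbered 22 under the median of ratios, 1 without 20°C library A, none without 20°C library B and 5 without either 25°C library. *apx-1*, a Notch ligand, had the largest difference of that list at 3732 and 3621 at 20°C and 4758 and 4842 at 25°C (0.38), a call also lost without 20°C library B (adjusted p = 0.0593). Eggshell and egg activation genes gave 6 higher and 2 lower of 20, with 13 higher under the median of ratios and 1 under the upper quartile or without either 20°C library. *egg-4*, a pseudophosphatase that acts when the egg is activated, was at 6255 and 5964 at 20°C and 10404 and 10614 at 25°C (0.78, limma adjusted p = 1.9e-04) and held. The chitin synthase gene *chs-1* was at 19938 and 22683 at 20°C and 29246 and 26832 at 25°C (0.40). *cpg-1*, a chondroitin proteoglycan of the eggshell, was at 98408 and 94254 at 20°C and 116750 and 130010 at 25°C (0.36). The last 2 calls were lost under the upper quartile and without either 20°C library, and that of *cpg-1* without 25°C library B (adjusted p up to 0.307).

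**Figure D4:**
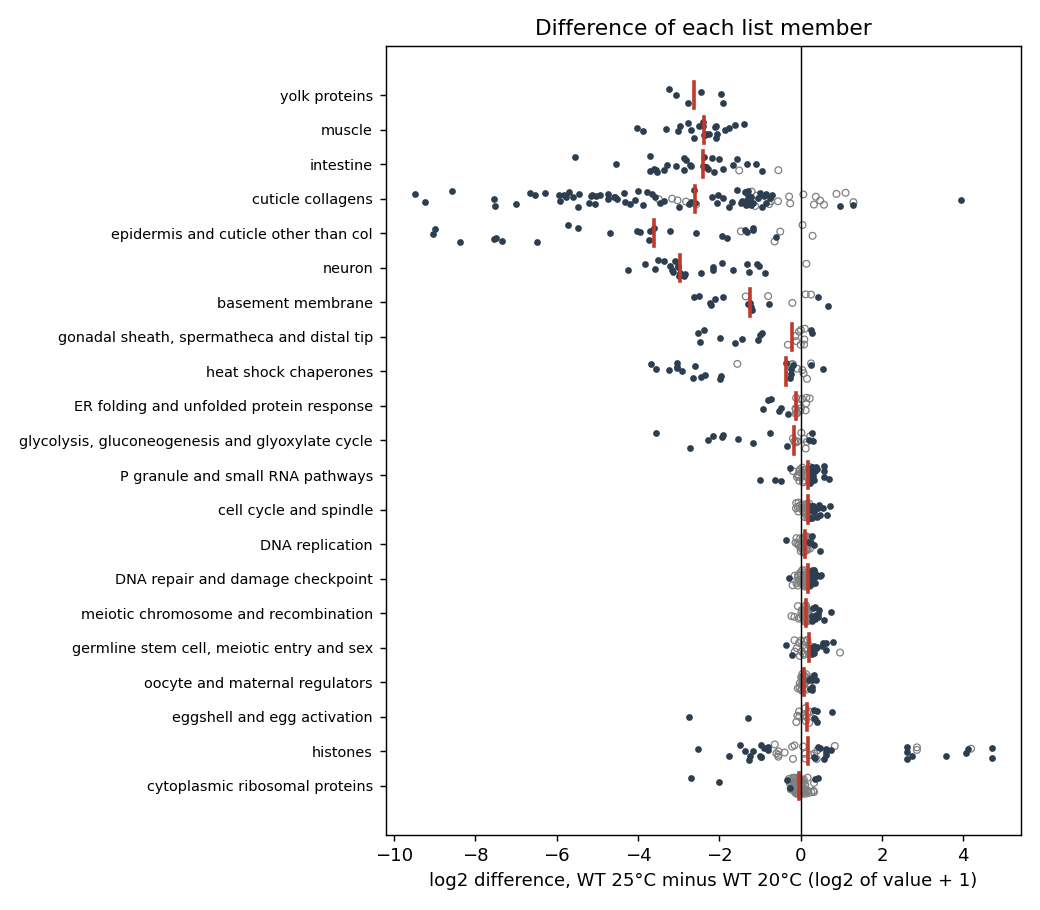
Difference between WT at 25°C and WT at 20°C (x axis, log2 of value + 1) for each tested member of 21 gene lists (y axis), 1 point per gene, filled where the limma adjusted p was under 0.05, with the median of a list as a red line. The medians of the 6 lists of somatic tissues and yolk lie between -3.60 and -2.37, and those of the germline lists lie just above 0 and turn negative under the upper quartile scaling.

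Few sperm genes were measurable. Of 44 listed sperm genes outside the major sperm protein family 6 reached a mean of 10, and 4 of these were higher (2 under the upper quartile or without either 20°C library) and none lower. *spe-15*, a myosin VI, was at 107 and 91.2 at 20°C and 376 and 365 at 25°C (1.90, limma adjusted p = 1.3e-04). *spe-6*, a casein kinase, was at 57.3 and 52.0 at 20°C and 143 and 118 at 25°C (1.24). Both held. *spe-44*, a transcription factor of the sperm program, was at 557 and 545 at 20°C and 767 and 734 at 25°C (0.44), a call lost under the upper quartile and without either 20°C library (adjusted p up to 0.0733). *fer-1*, a ferlin of sperm membrane fusion, was at 30.3 and 21.6 at 20°C and 20.9 and 15.6 at 25°C and did not pass.

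Histone genes parted by chromosome, a pattern described after the values were seen. All 8 tested on chromosome II were higher (median 3.16), 9 of 20 on chromosome IV were higher and none lower (median 0.52), and on chromosome V 10 of 17 were lower and none higher (median -0.90). Of those on chromosome II, *his-12* and *his-43* reached the mean required for testing only through their 25°C libraries. Over all histone genes 18 were higher and 14 lower, against 11 and 8 without 20°C library A, 11 and 5 without 20°C library B, and 8 and 13 without the variance trend. *his-11*, an H2B gene on chromosome II, was at 516 and 634 at 20°C and 8088 and 5761 at 25°C (3.58, limma adjusted p = 1.8e-05). *his-25*, an H3 gene, was at 55.7 and 62.8 at 20°C and 352 and 462 at 25°C (2.75). *his-16*, an H2A gene, was at 42.1 and 10.3 at 20°C and 341 and 429.6 at 25°C (4.12). Together with *his-10*, an H4 gene at 21.8 and 25.17 at 20°C and 134 and 166 at 25°C (2.62), all 4 core histones were represented among these rises, and the 4 genes held. On chromosome V *his-4*, an H2B gene, was at 822 and 895 at 20°C and 362 and 299 at 25°C (-1.38). *his-2*, an H3 gene, was at 125 and 122 at 20°C and 52.1 and 50.6 at 25°C (-1.25). Of the replication-independent H3.3 genes, *his-71* on the X chromosome was at 162 and 169.6 at 20°C and 43.6 and 52.6 at 25°C (-1.77). *his-72* on chromosome III, named after its values were seen, was at 4144 and 3463 at 20°C and 5146 and 5089.8 at 25°C (0.43, lost under the upper quartile and without 20°C library B, adjusted p = 0.0874). Most histone mRNAs carry no poly(A) tail, and copies with near-identical sequence share reads: *his-10* has the same values as *his-14* and *his-26*, and *his-12* the same as *his-43*, so that the 8 genes of chromosome II hold 5 different sets of values.

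The X chromosome, which is known to be largely silent in mitotic and early meiotic germ cells and transcribed in oocytes and somatic cells, was lower as a whole. Of its 1586 genes tested 1106 were lower (69.7%) and 30 higher (1.89%), whereas on chromosomes I to V between 20.4% and 42.6% were lower and between 8.95% and 14.2% higher. The difference was not limited to genes of low level. Among genes with a mean of at least 1000, 118 of 152 on the X chromosome were lower (77.6%), with a median of -0.64, against 231 of 3959 on the autosomes (5.83%), with a median of 0.09. The gap between these medians was between -0.76 and -0.68 over all settings tried, leaving out each library included. Without the members of the 6 somatic lists, 102 of 136 such X chromosome genes were lower (75.0%), with a median of -0.57.

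The X chromosome took 4.46% and 4.80% of the 20°C libraries and 2.25% and 2.41% of the 25°C libraries. Without the 6 somatic lists these shares were 3.29% and 3.43% at 20°C and 2.05% and 2.08% at 25°C. In the *nmad-1* libraries they were 4.83% and 3.58% at 20°C and 3.13% and 3.84% at 25°C, so that both WT libraries at 25°C again lay below the other 6. The part of somatic transcripts outside the lists in these shares was not tested.

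The fall of X chromosome genes crossed functions. Over the 27 lists outside the tissues, immunity and the large families, 29 of 41 X chromosome members were lower (70.7%) and none higher, whereas of 832 members elsewhere 65 were lower (7.81%) and 160 higher. Among 38 nuclear genes of oxidative phosphorylation the 5 lower ones were all on the X chromosome. *sdha-1*, a complex II subunit, was at 1809 and 1797 at 20°C and 771 and 809 at 25°C (-1.19). *asb-2*, a subunit of ATP synthase, was at 2573 and 2934 at 20°C and 837 and 895 at 25°C (-1.67). Its germline paralogue on chromosome III, *asb-1*, was at 5199 and 4928 at 20°C and 6574 and 6478 at 25°C (0.37). The 2 ATP synthase genes thus parted in direction, and ribosomal protein genes did so too. *rpl-11.2* on the X chromosome was at 4434 and 4927 at 20°C and 988 and 1391 at 25°C (-1.99). *rpl-11.1* on chromosome V was at 30206 and 27336 at 20°C and 35013 and 38839 at 25°C (0.36). The rises of *asb-1* and *rpl-11.1* did not pass under the upper quartile or without 20°C library B, nor that of *rpl-11.1* without 20°C library A or 25°C library B (adjusted p up to 0.22). *rpl-25.1* and the elongation factor gene *eef-1A.2*, also on the X chromosome, were lower at -2.69 and -1.59, and both held.

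The most abundant X chromosome genes besides the yolk genes, chosen for their level after their values were seen, did not all fall. Of the 15 such genes among the 20 with the highest mean, 11 were lower, 1 was higher and 3 did not pass, and *hsp-3*, *pdi-2* and *let-2* above are among the lower ones. *C39D10.7* was at 33556 and 37346 at 20°C and 24102 and 23567 at 25°C (-0.57, lost without 20°C library B, adjusted p = 0.0555). *tbh-1*, a tyramine beta-hydroxylase known from the gonadal sheath and some neurons, was at 7689 and 8539 at 20°C and 4939 and 5187 at 25°C (-0.68). *mrp-4*, an ABC transporter gene, was at 11449 and 12154 at 20°C and 14197 and 13747 at 25°C (0.24). The rise of *mrp-4* did not pass under the upper quartile or without any library but 25°C library B (adjusted p up to 0.24). *meg-1*, a P granule component of the embryo, was at 7249 and 6949 at 20°C and 7366 and 7204 at 25°C (0.037, negative under the upper quartile). It did not pass, except as higher under the median of ratios and as deposited (0.28 in the latter).

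General expression machinery gave few calls with the same total. Of 77 cytoplasmic ribosomal protein genes 2 were higher and 4 lower, of 33 proteasome genes 1 was higher and none lower, and of 31 splicing factors 3 were higher and none lower. Of 30 translation factors 2 were higher and 3 lower, of 69 mitochondrial ribosomal protein genes 7 were higher and none lower, and of 30 chromatin regulators 5 were higher and 1 lower. Of 18 genes of germline mRNPs and RNA decay 3 were higher and 1 lower. The medians of these lists lay between -0.05 and 0.13 and changed sign with the scaling, and the counts moved with them. Under the median of ratios 20 proteasome, 16 splicing, 11 translation factor, 42 mitochondrial ribosomal, 21 chromatin and 8 mRNP genes were higher, and under the upper quartile none was higher in any of these 7 lists and 29 cytoplasmic ribosomal and 14 translation factor genes were lower. Without 20°C library B the higher genes of these lists numbered none, and without 25°C library B 11 cytoplasmic ribosomal genes were lower. Among 12 protein genes of the mitochondrial genome *ctc-3*, a cytochrome oxidase subunit, was the one called (without 25°C library B 6 were higher, and without 25°C library A 2 were lower), at 15815 and 13631 at 20°C and 28910 and 20317 at 25°C (0.72, lost without either 20°C library, adjusted p up to 0.13). These 12 genes took 0.381% and 0.398% of the 20°C libraries, 0.623% of 25°C library A and 0.386% of 25°C library B.

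Outside the histones, rises of at least 2-fold were also seen in genes of diverse or unknown function. *H11L12.1*, on the X chromosome, was at 97.9 and 101 at 20°C and 1303 and 1546 at 25°C (3.82, standard error 0.13, limma adjusted p = 8.1e-06). *timm-17B.2* (listed as D2096.1), named for the Tim17 family of mitochondrial import proteins, was at 71.7 and 61.8 at 20°C and 906 and 859 at 25°C (3.71). *lrg-1*, annotated as a pseudogene, was at 209 and 226 at 20°C and 2197 and 1725 at 25°C (3.16). In each of them the lower 25°C library was more than 5 times the higher 20°C library, as in *C27C7.1*, at 1640 and 1499.8 at 20°C and 9298 and 9495 at 25°C (2.58). Among abundant transcripts *lea-1*, a late embryogenesis abundant protein known from desiccation, was at 7098 and 7741 at 20°C and 25532 and 24586 at 25°C (1.76). *maph-1.3*, named for a microtubule-associated protein, was at 2410.4 and 2317 at 20°C and 7721 and 7791 at 25°C (1.71). *ecps-2* was at 718 and 704 at 20°C and 1819 and 2015 at 25°C (1.43). *puf-10*, a PUF gene annotated as a pseudogene, rose as well and was at 1600.1 and 1528 at 20°C and 3411 and 3651 at 25°C (1.17). All 8 genes held.

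**Figure D5:**
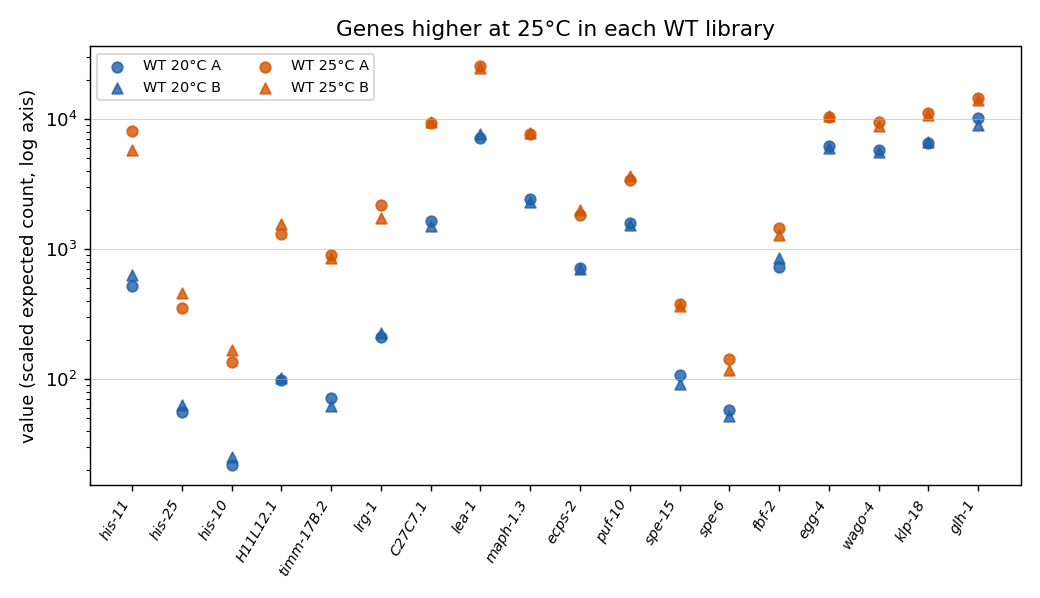
Values of 18 genes that were higher at 25°C (x axis) in each WT library (y axis, scaled expected count, log axis), 20°C in blue and 25°C in orange, library A as circles and library B as triangles. The genes were chosen as higher, so in each of them both 25°C libraries lie above both 20°C libraries, as in 27.4% of all genes tested. The ratio of the group means runs from 14.3 in *H11L12.1* to 1.49 in *glh-1*.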

How the data were processed

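Libraries were made from poly(A) RNA of germlines, and the authors, per the labels and the study's methods, aligned reads to ce10 with Bowtie2 2.2.9 and RSEM 1.3.0. The deposited signal of a gene is an RSEM expected count divided by a size factor, in 1 table per temperature (46739 gene IDs, 8 columns). Among low values above 0, between 92.0% and 92.6% came out as whole reads (within 0.01 of a read), and no count test was run. The depth per library was between 18451560 and 33429410 reads, which limits the precision of low values.

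The ribosomal RNA genes (21 rows) were dropped, and the 4 WT libraries were scaled to the same total. The test was limma (version 3.58.1, run in R 4.3.3) over genes with a mean of at least 10 (log2(value + 1), variance trend, Benjamini-Hochberg, 0.05, WT libraries only). The scripts were tested on simulated data. The alternatives were other scalings (median of ratios, upper quartile, ribosomal RNA kept, as deposited), pseudocounts of 0.5 and 5, filters of 0, 1 and 100, no trend, a fold of 2 in the call rule, all 8 libraries in the fit, and leaving out each library. Chromosomes and symbols come from the WBcel235 annotation and a table of gene names, which gave a current symbol for 43720 IDs. Named genes are key genes of the 41 lists, up to 4 members of a list with the smallest p in each direction, and the 15 largest changes in each direction (10 among genes with a mean of at least 1000) with groups that did not overlap and a mean of at least 50 in the higher group, besides those said to be chosen later. The lists, the rule and the comparison were chosen with earlier results of these data known. Of the listed names, 8 were not matched. No genome sequence was used.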

Additional observations from a re-analysis of the deposited data

How the results depend on the processing

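The count of genes higher at 25°C moved by more than 1.5 times under 6 settings with all libraries: it was 3510 with the median of ratios, 4268 as deposited, 354 with the upper quartile, 507 without the variance trend, 737 with all 8 libraries in the fit and 794 with the median of ratios over genes with a mean of at least 1000, a scaling chosen after seeing the data. As deposited, 337 genes were higher by at least 2-fold. With a mean of at least 100 required, 7276 genes were tested, 2609 were past the threshold, 1636 of these lower, 73 higher by at least 2-fold and 931 lower by at least 2-fold, and a fold of 2 in the call rule left 3266 calls. Leaving out 1 library gave between 2529 and 4866 genes past the threshold, between 319 and 1329 higher, between 2210 and 3609 lower, between 144 and 184 higher by at least 2-fold and between 1951 and 2942 lower by at least 2-fold. The total was 3050 without 20°C library A and 2529 without 20°C library B, and 1951 genes were lower by at least 2-fold without the latter. A group with 1 library left is assumed to vary like the other.

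The sign of small differences turned in 12 named genes. It was positive for *lim-7* under the median of ratios (0.14), as deposited (0.20), without 20°C library B (0.13) and without 25°C library B (0.12), within a range of -0.21 to 0.13 on leaving out a library. It was positive for *inx-8* (0.052 and 0.12) and *hsp-4* (0.13 and 0.20) under the median of ratios and as deposited, and as deposited only for *hsp-90* (0.034), *cct-2* (0.018), *hsp-6* (0.020) and *daz-1* (0.039). It was negative under the upper quartile for *hsf-1* (-0.15), *cbd-1* (-0.072), *oma-1* (-0.13), *gld-1* (-0.066) and *meg-1* (-0.18), with the median of ratios over genes with a mean of at least 1000 for *hsf-1* (-0.014) and *meg-1* (-0.049), and with ribosomal RNA kept for *meg-1* (-0.017). None of these values passed the threshold. Calls of named genes were otherwise lost in 271 combinations of gene and setting and gained in 14, with the direction kept. Of the 145 named calls, 43 were lost without the variance trend, 34 under the upper quartile, 41 without 20°C library A and 48 without 20°C library B. No paired analysis was possible because the data columns carry no replicate numbers.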
